A study of Mus musculus with 2 samples.

Results

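The genes described here are 39 genes of DNA replication and S phase, measured in E14 mouse embryonic stem cells with normal or reduced Sin3a. They were chosen by name: the subunits of the replicative helicase, the origin recognition complex, the licensing and firing factors, the replicative polymerases with primase, the sliding clamp and its loader, enzymes of deoxynucleotide supply, the histone messenger RNA binding protein Slbp, and the transcription factors E2f1 and E2f3. All 39 had a probe set assigned to a single gene symbol, of 18194 genes named on the array. Each gene was read from the brightest of its probe sets, judged by the mean of the log2 signals of both arrays, and its other probe sets served as a check.

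E14 is a line of mouse embryonic stem cells, grown here at low passage on gelatin in medium with serum and leukemia inhibitory factor; the labels name no feeder cells. Both cultures were infected with a lentivirus and selected with puromycin before total RNA was taken. The control culture (shCtrl) received a non-targeting short hairpin RNA, and the knockdown culture (shSin3a-1) received a hairpin against Sin3a, which encodes the scaffold of a histone deacetylase co-repressor complex. There was 1 array per group and a single hairpin against Sin3a, so no difference has a replicate check, neither a p-value nor an error over samples is given, and an effect of the knockdown cannot be told apart from a difference between the 2 cultures. Values are the deposited MAS5 signals, in arbitrary linear units, of an Affymetrix array whose probe sets lie towards the 3' end of transcripts.

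Replication starts in G1 phase, when the origin recognition complex, CDC6 and CDT1 load the MCM helicase onto DNA, a step called licensing; geminin, the product of Gmnn, blocks CDT1 later in the cycle. In S phase CDC45 and GINS join the helicase, polymerase alpha with primase starts each strand, and polymerases delta and epsilon, held by the clamp PCNA, extend it. Many of these genes are transcribed from promoters bound by E2F factors, which retinoblastoma proteins hold in check together with SIN3 and histone deacetylases. Mouse embryonic stem cells divide rapidly, spend much of the cycle in S phase and keep many of these genes active throughout it.

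A sequence feature that many replication genes share is the E2F-type site, and the promoters that hold one are shown because the members were later compared by it. RefSeq promoters of assembly GRCm38.p6 were matched by symbol to 31 of the 39 genes; Mcm4, Gmnn, Gins1, Gins2, Gins4, Prim2, Pole and Rfc2 had no entry. The 250 bases before each annotated start were searched on both strands for 4 motifs, TTTCCCGC, TTTGGCGC, TTTCGCGC and TTTGCCGC; the second and the third can overlap on opposite strands. At least 1 motif was found in 9 of the 31 genes (29.0%), against 2.16% of the 27025 genes in the table and 4.37% of the 8030 genes with a promoter entry that passed the signal filter given below. Counted by promoter, 25.0% of the 36 promoters of these genes held a motif, against 1.86% of 32851. TTTGCCGC was found in none of the 36. A match is a run of letters and not a measured binding site. The stretches below are written 5' to 3' on the strand of the gene, with the bases of each match in capitals.

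Mcm5 (chr8:75109340-75109383, plus strand): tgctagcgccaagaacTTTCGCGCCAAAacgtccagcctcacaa
Mcm6 (chr1:128359729-128359831, minus strand): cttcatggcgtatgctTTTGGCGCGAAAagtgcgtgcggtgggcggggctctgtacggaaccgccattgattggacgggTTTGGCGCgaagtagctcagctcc
Mcm7 (chr5:138172025-138172064, minus strand): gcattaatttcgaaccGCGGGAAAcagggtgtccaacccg
Orc1 (chr4:108579411-108579450, plus strand): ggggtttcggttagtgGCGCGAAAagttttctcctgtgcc
Orc3 (chr4:34614960-34614999, minus strand): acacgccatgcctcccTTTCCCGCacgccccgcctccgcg
Cdc6 (chr11:98907997-98908036, plus strand): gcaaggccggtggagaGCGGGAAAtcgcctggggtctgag
Pola1 (chrX:93632270-93632309, minus strand): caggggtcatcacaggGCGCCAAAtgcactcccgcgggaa
Rfc3 (chr5:151651209-151651234, minus strand): aagtgacgtcgcacgcTTTCGCGCtc
E2f3 (chr13:29986064-29986090, minus strand): atggtttgaaaagccgGCGGGAAAtct

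Mcm5 and Mcm6 each held a stretch in which matches on opposite strands overlap, 153 and 110 bases before the start at their upstream ends, and Mcm6 had a further match 47 bases before it. The match of Orc1 lay 27 bases before the start, and those of Rfc3 and E2f3 lay 10 and 11 bases before it. The matches of Cdc6 and Pola1 both began 138 bases before their starts.

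Sin3a itself was lower in the knockdown array. Its brightest probe set read 3072 on the control array and 534 on the knockdown array, which is 17.4% of the control signal, and its other probe sets were at 18.8% and 30.1%. All 10 stem cell markers examined passed the signal filter, and their signals summed to 95647 on the control and 100831 on the knockdown array. The 8 fibroblast markers summed to 530 on the control and 343 on the knockdown array; Thy1 and Pdgfrb passed the filter, on the control array only, and Col1a1, Col1a2, Col3a1, Twist2, Postn and Lum did not pass. All 6 endoderm markers together summed to 502 and 919; Dab2 passed on both arrays, Gata6, Sox17 and Sox7 passed on the knockdown array only, and Gata4 and Foxa2 did not pass. All 4 neural markers together summed to 1335 and 1003; Tubb3 passed on both arrays, Sox1 and Nes on the control array only, and Pax6 did not pass. Of 4 mesoderm markers 3 had a probe set and 0 passed. These sums moved with the group, and their part in the differences below was not tested.

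The replication genes had similar signals on both arrays, and none of the 39 differed by 2-fold or more. A gene was kept for counting where the brighter of its values was at or above the 60th percentile of that array (signals of 131 and 126), which 9783 of 18194 genes and all 39 replication genes did. Of the kept genes 1.70% had the higher signal in the knockdown at 2-fold or more, and 2.79% had the lower one. Most replication genes were bright: 32 of 39 (82.1%) reached the 90th percentile on at least 1 array, against 31.0% of kept genes. Bright genes differed less often, and among the 3031 genes at that level 0.396% were higher and 0.462% lower at 2-fold. A count of 0 of 39 is therefore near the background. In bulk RNA, fewer cells in S phase and less of a transcript per cell cannot be told apart, in this and all following values.

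**Figure D1:**
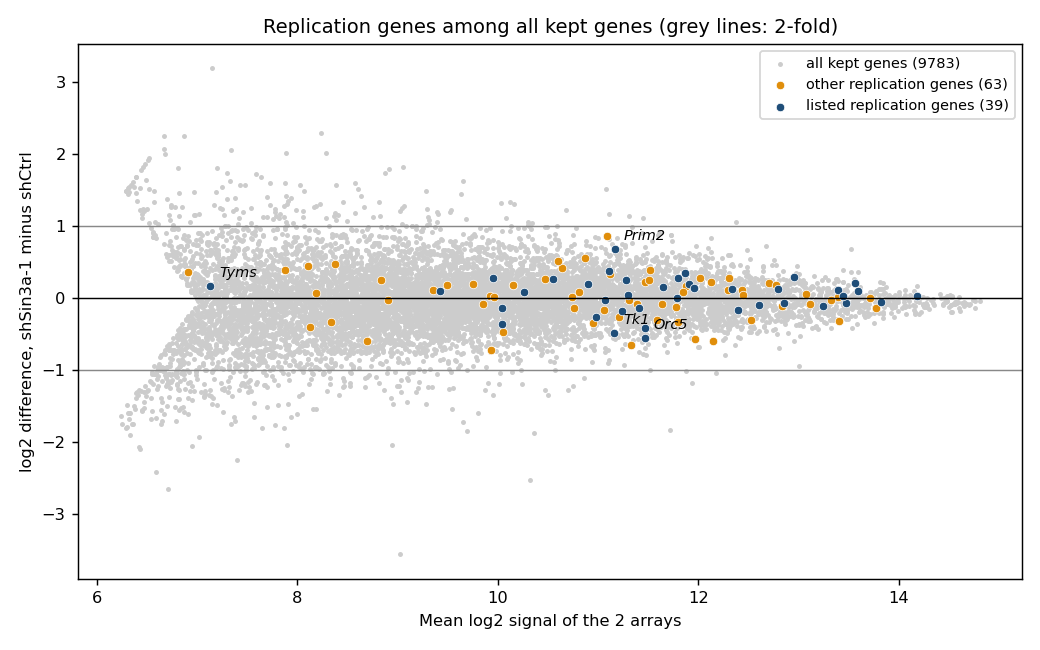
Difference between the arrays (log2, shSin3a-1 minus shCtrl) against the mean log2 signal of both arrays, with 1 point per gene: 9783 kept genes in grey, the 39 replication genes in blue and 63 other genes of DNA replication in orange. All blue and orange points lie between the grey lines at 2-fold, and the blue points, apart from Tyms, lie in the bright part of the range.

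Smaller differences went in both directions. At 1.5-fold or more, 1 of 39 was higher, Prim2, and none was lower, against 7.12% and 9.46% of all kept genes and 5.38% of the bright ones in either direction. At a ratio of 5 to 4 or more, Prim2, Rfc3 and Rfc4 were higher and Orc5, Mcm10, Pold1 and Tk1 were lower; these 7 genes are 17.9% of the 39. At that size 17.0% of all kept genes were higher and 22.5% lower (39.5% together), as were 12.2% and 12.1% of the bright ones (24.4% together); of the 32 bright replication genes 6 differed (18.8%). The split of 3 higher and 4 lower depended on the scaling: centred on the array medians it was 8 higher and 2 lower, as Orc2, Orc4, Cdc45, Gins2 and Slbp joined the higher genes and Mcm10 and Pold1 left the lower ones. A further 17 of 39 (43.6%) differed by less than 1.1-fold, against 41.1% of bright kept genes. The median size of the log2 difference, whatever its sign, was 0.16 over the 39, 0.18 over the bright kept genes and 0.25 over all kept genes.

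On balance the brightest probe sets of the replication genes lay slightly above 0. The log2 difference, shSin3a-1 minus shCtrl, was above 0 in 24 of 39 (61.5%), against 45.8% of kept genes and 46.6% of bright ones. Its median was 0.08 over the 39 and -0.03 over the kept genes, a gap of 0.11. Centring the arrays on their medians, which adds 0.11 to every difference, put the medians at 0.19 and 0.07 and left the gap at 0.11; the gap was 0.10 with loess scaling. Under the 5 scalings tried, 23 genes were above 0 each time and 10 below 0 each time. The sign of the other 6 turned: Mcm2, Mcm3, Mcm7, Orc1 and Rrm1 were above 0 with median centring, and Gins1 was below 0 with 75th percentile or quantile scaling. Of the 37 kept probe sets of the 39 genes that were not the brightest, 20 were above 0 (54.1%). Over all genes this share was 56.3% of 7313. These shares cover unlike sets: 15.1% of the 7313 passed the filter on 1 array only, against 2.70% of the 37. The share above 0 was not computed without them, so no excess or lack of one can be read from it.

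**Figure D2:**
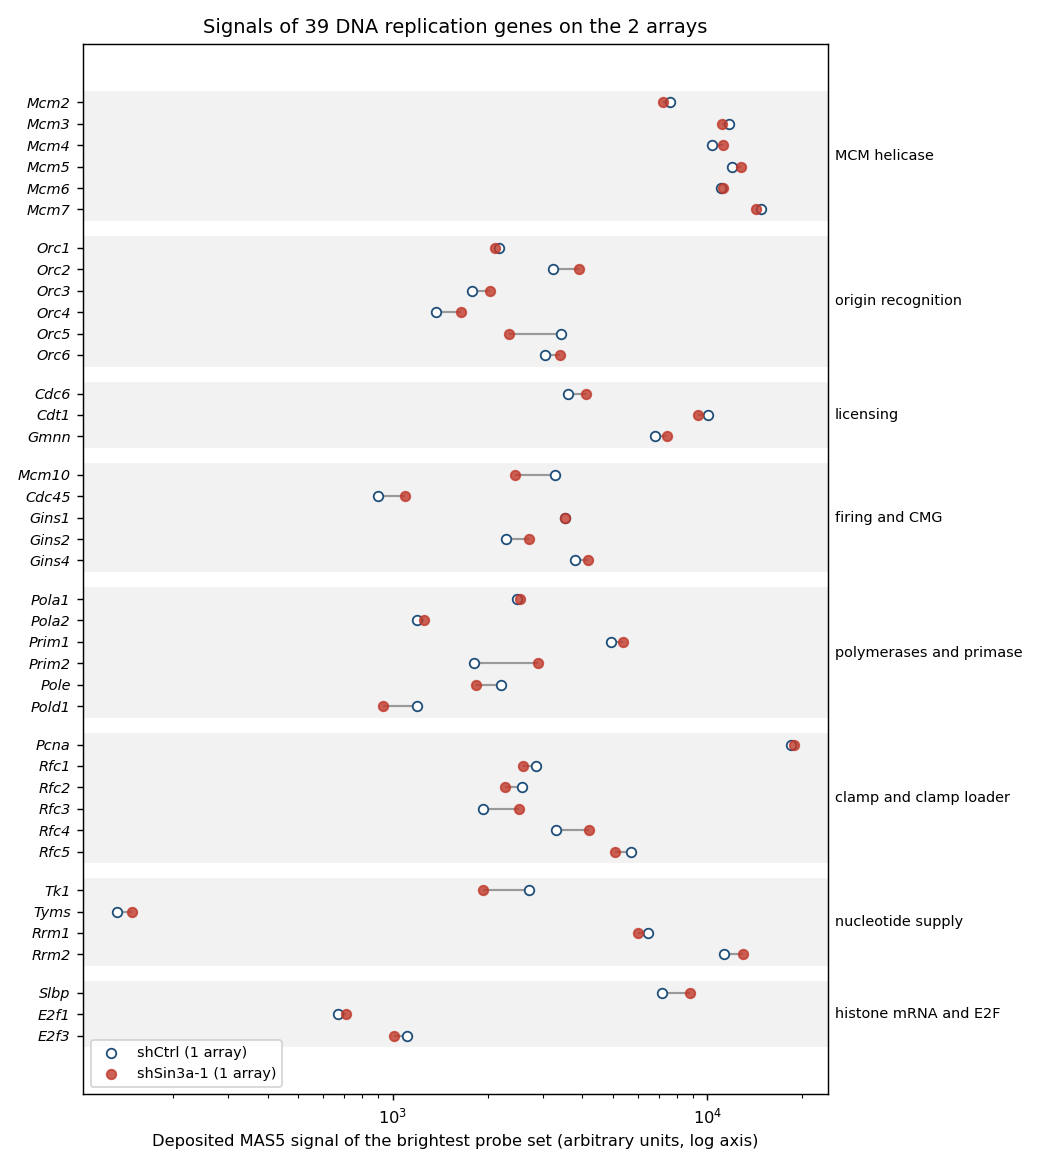
Deposited signal of the brightest probe set (arbitrary units, log axis) of each of the 39 genes, grouped by role, with open circles for the shCtrl array and filled circles for the shSin3a-1 array. The circles nearly coincide for the MCM genes and Pcna, and they are furthest apart for Prim2 (1815 and 2903), Orc5 (3431 and 2338) and Tk1 (2715 and 1931). Signals of different probe sets are not comparable as levels.

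The MCM helicase is the motor that unwinds DNA ahead of the polymerases, a ring of the products of Mcm2 to Mcm7, and by brightest probe set its genes were the closest to equal of any complex in the list. Mcm2 had signals of 7602 on the control array and 7250 on the knockdown array, and Mcm3 had 11683 and 11120. Mcm4 had 10377 and 11170, and Mcm5 had 11970 and 12782. Mcm6 had 11036 and 11225, and Mcm7 had 14853 and 14257. The control was the higher array for Mcm2, Mcm3 and Mcm7 and the lower one for Mcm4, Mcm5 and Mcm6. The 6 log2 differences ran from -0.07 in Mcm2 and Mcm3 to 0.11 in Mcm4, a range of 0.18 (SD 0.08 over the 6 genes). Both probe sets of Mcm2 (-0.08 and -0.07), both of Mcm4 (0.11 and 0.14) and all 4 of Mcm7 (-0.22 to -0.06) lay on 1 side of 0 with the deposited scaling. Those of the other MCM genes lay on both sides: the 5 kept probe sets of Mcm3 ran from -0.26 to 0.46, the widest range of the complex (0.72), the 3 of Mcm5 from -0.03 to 0.32 and the 2 of Mcm6 from -0.02 to 0.02. With median centring the brightest probe sets of Mcm2 (0.04), Mcm3 (0.04) and Mcm7 (0.05) turned above 0, so that no direction can be given for these genes either.

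The origin recognition complex marks the sites where the helicase is loaded, and its genes spread more widely than the MCM genes, from -0.55 to 0.28 on the log2 scale (a range of 0.83). Orc5, which encodes an ATP-binding subunit, had signals of 3431 on the control array and 2338 on the knockdown array, 1.47-fold lower. Among the bright kept genes 2.97% were at least this far below 0. Orc5 has a single probe set, so the value has no second reading, and it was -0.44 with median centring. Orc2 (3233 and 3921, log2 difference 0.28), Orc3 (1784 and 2032, 0.19), Orc4 (1371 and 1651, 0.27) and Orc6 (3044 and 3393, 0.16) were higher in the knockdown. Orc1, the subunit whose protein level varies through the cycle in many cells, was nearly equal (2170 and 2119). The kept probe sets of Orc2 and Orc4 disagreed: those of Orc2 ran from -0.18 to 0.54 and those of Orc4 from -0.53 to 0.27. Both kept probe sets of Orc3 were above 0 (0.19 and 0.59). Orc5 was thus the single gene of the complex at a ratio of 5 to 4 or more by brightest probe set, and it went opposite to Orc2, Orc3, Orc4 and Orc6.

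The licensing factors differed by ratios below 5 to 4. Cdc6, an ATPase that helps load the helicase, had signals of 3602 on the control array and 4104 on the knockdown array (log2 difference 0.19). Cdt1, which brings the helicase to origins, had 10066 and 9314 (-0.11), and its second probe set gave -0.14. Gmnn, the inhibitor of CDT1, had 6804 and 7414 (0.12). Cdt1 was the lower one in the knockdown and its inhibitor the higher one, each by less than 1.1-fold; with median centring Cdt1 was at -0.0034.

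Among the factors that turn the loaded helicase into a moving one, Mcm10 was lower and the others were equal or higher by brightest probe set. Mcm10, a scaffold needed when origins fire, had signals of 3274 on the control array and 2449 on the knockdown array, 1.34-fold lower. Its dimmer kept probe sets did not share this direction. One had 170 and 178 (0.07), and the other had 92.0 and 158 (0.78) and passed the filter only on the knockdown array, where it was high. The range between the probe sets of Mcm10 was 1.19 with that reading and 0.49 without it; without it the widest range among the 39 genes was that of Orc4 (0.80). Cdc45, a helicase cofactor, had 898 and 1090 (0.28) in its kept probe set. Of the GINS subunits, Gins1 had 3536 and 3538, Gins2 had 2284 and 2719 (0.25) and Gins4 had 3783 and 4179 (0.14). Gins1 was as near to equal as any of the 39, while both probe sets of Gins2 were above 0 (0.25 and 0.70).

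Polymerase alpha and primase, which lay down the primers, had the gene with the largest difference of the list. Prim2, the large primase subunit, had signals of 1815 on the control array and 2903 on the knockdown array, 1.60-fold higher. Its second kept probe set gave nearly the same value (log2 differences of 0.68 and 0.71), and the difference of the brighter one was 0.64 to 0.79 over the 5 scalings. Among the bright kept genes 1.98% were at least this far above 0. The partners of PRIM2 in the same complex differed little. Prim1, the catalytic primase subunit, had 4938 and 5391 (0.13), Pola1, the catalytic polymerase subunit, had 2480 and 2543 (0.04), and Pola2, its accessory subunit, had 1193 and 1261 (0.08). The catalytic subunits of the main fork polymerases were lower. Pold1, of polymerase delta, had 1196 and 930, 1.29-fold lower, and both of its probe sets were below 0 (-0.44 and -0.36). Pole, of polymerase epsilon, had 2215 and 1841 (-0.27) in its single probe set. With median centring Pold1 was at -0.25 and Pole at -0.16.

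Pcna, the sliding clamp that tethers polymerases to DNA, had signals of 18484 on the control array and 18825 on the knockdown array, nearly equal (log2 difference 0.03). The subunits of the clamp loader, replication factor C, went in both directions. Rfc3 had 1940 and 2511, 1.29-fold higher, and its second probe set agreed (0.37 and 0.39). Rfc4 had 3300 and 4210, 1.28-fold higher, although its second probe set was at 0.03. Rfc1, the large subunit, had 2853 and 2600 (-0.13), Rfc2 had 2582 and 2274 (-0.18) and Rfc5 had 5699 and 5089 (-0.16). The kept probe sets of Rfc1 (-0.13 to 0.18) and Rfc2 (-0.18 to 0.23) lay on both sides of 0. Of the 5 loader subunits, Rfc3 alone therefore differed at a ratio of 5 to 4 or more in every kept probe set.

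The enzymes that supply deoxynucleotides did not move together. Tk1, thymidine kinase of the salvage pathway, had signals of 2715 on the control array and 1931 on the knockdown array, 1.41-fold lower, in its single probe set; 4.52% of bright kept genes were at least this far below 0. Rrm2, the regulated small subunit of ribonucleotide reductase, had 11271 and 13019 (log2 difference 0.21), and its 3 probe sets were all above 0 (0.21 to 0.74). Rrm1, the large subunit, had 6454 and 6036 (-0.10), but its second kept probe set was at 0.48. Tyms, thymidylate synthase, was near background: its brightest probe set had 133 and 148, just over the filter, and its other 3 probe sets did not pass, so its value carries little weight.

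Slbp, which binds the stem-loop of replication-dependent histone messenger RNAs, had signals of 7166 on the control array and 8789 on the knockdown array (log2 difference 0.29), while a dimmer kept probe set was at -0.33. E2f1 and E2f3 encode activators of S phase genes. E2f1 had 668 and 711 (0.09) and a dimmer kept probe set at 0.62. E2f3 had 1108 and 1006 (-0.14), and its second probe set gave -0.09. All 3 genes were within a ratio of 5 to 4 by their brightest probe set.

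The 39 genes had 92 probe sets, of which 76 passed the filter, and 25 genes had at least 2 that passed. In 15 of these 25 genes all kept probe sets lay on 1 side of 0, against 56.1% of 4415 kept genes with at least 2. The median range between the probe sets of a gene was 0.32 on the log2 scale for the 25 and 0.41 for the 4415, and the SD pooled over the 25 genes was 0.28. The differences of most of the 39 genes were smaller than this spread between readings of the same transcript. That SD includes the Mcm10 reading (92.0 and 158) that passed the filter only on the knockdown array, where it was high. It was not computed without that reading. The count of 15 does not depend on it. Of the 7 genes at 5 to 4 or more, Prim2, Rfc3 and Pold1 had a second kept probe set on the same side. The second one of Rfc4 was at 0.03, close to equal. The kept probe sets of Mcm10 did not share a side, and Orc5 and Tk1 had 1 probe set each.

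Among the 37 kept probe sets of these genes that were not the brightest, 6 were higher at 1.5-fold or more (16.2%) and 0 were lower. They belonged to Orc3, Mcm10, Gins2, Prim2, Rrm2 and E2f1, and that of Mcm10 passed the filter only on the knockdown array, where it was high. Over all genes, 17.5% of 7313 such probe sets were higher and 8.19% lower at that size, so the share of higher ones was near the background. Counting only probe sets that passed on both arrays, 5 of 36 were higher (13.9%) and 0 were lower, against 13.0% and 5.80% of 6211 over all genes.

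**Figure D3:**
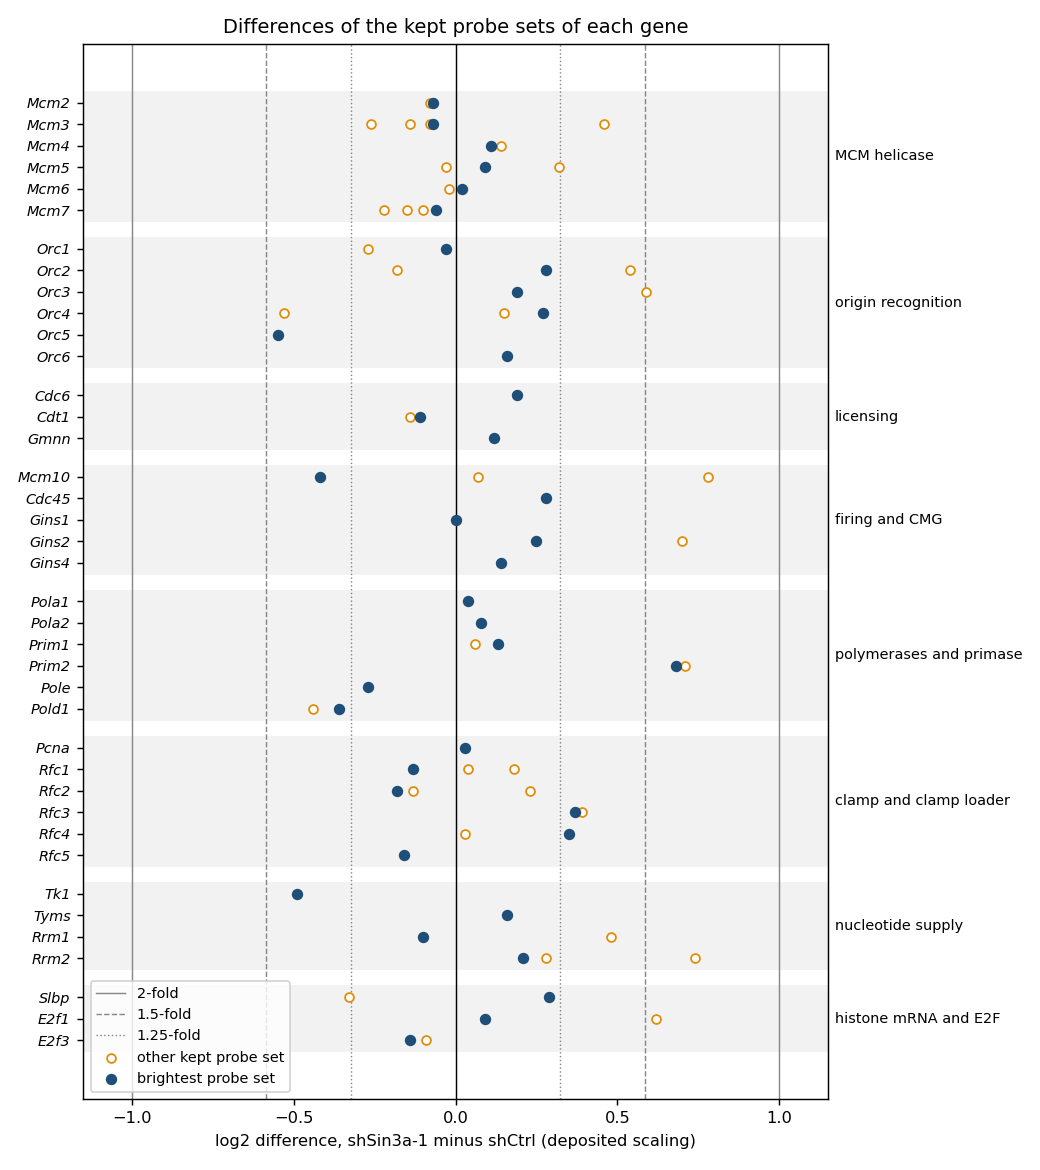
Log2 difference (shSin3a-1 minus shCtrl, deposited scaling) of each kept probe set of the 39 genes, with filled circles for the brightest probe set and open circles for the others; vertical lines mark ratios of 5 to 4 (dotted), 1.5 (dashed) and 2 (solid). Prim2 and Rfc3 have both circles together to the right of 0 and Pold1 to the left, while those of Mcm10, Orc4 and Slbp fall on both sides.

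The 9 genes with an E2F-type match had differences from -0.14 to 0.37, with a median of 0.04, and the 22 with a promoter entry but no match had differences from -0.55 to 0.35, with a median of 0.05. The genes with matches were Mcm5 (0.09), Mcm6 (0.02), Mcm7 (-0.06), Orc1 (-0.03), Orc3 (0.19), Cdc6 (0.19), Pola1 (0.04), Rfc3 (0.37) and E2f3 (-0.14), the sequences printed above. Over all kept genes with a promoter entry, the median was -0.03 for the 351 with a match and -0.03 for the 7679 without, and 49 and 1230 of these genes differed by 1.5-fold or more in either direction. The signed medians with and without a match were close in both sets. The median size, whatever its sign, was 0.09 for the 9 members with a match and 0.16 for the 22 without. Over the kept genes it was 0.23 and 0.24.

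A further 66 genes of the replication machinery were listed by function, of which 63 had a probe set with a single symbol and all 63 passed the filter. None differed by 2-fold or more. At 1.5-fold or more 1 was higher and 4 were lower, together 7.94%, against 16.6% of kept genes in either direction. Of the 63 genes 41 reached the 90th percentile on at least 1 array, and 3 of these were at 1.5-fold (7.32%), against 5.38% of bright kept genes. At a ratio of 5 to 4 or more 10 were higher and 11 lower, together 33.3%, against 39.5% of kept genes; of the 41 bright ones 12 were (29.3%), against 24.4%. The balance moved with the scaling, and with median centring 3 were higher (Rad17, Dscc1 and E2f8) and 1 was lower (Ticrr); with loess scaling Pold2 fell just short of 1.5-fold. The log2 difference was above 0 in 37 of 63 (58.7%), against 45.8% of kept genes, with a median of 0.04.

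Of 12 genes of origin initiation and firing, 8 were above 0 and 2 were lower at 1.5-fold or more. Of all kept genes 45.8% were above 0 and 9.46% were lower at that size, so counts in so small a group carry little weight. Ticrr, which encodes treslin, a factor that brings CDC45 to origins, had signals of 1258 on the control array and 761 on the knockdown array, 1.65-fold lower. Its 3 kept probe sets were all below 0 (-0.72 to -0.17). Of these, that with signals of 135 and 98.0 passed the filter only on the control array, where it was high. Recql4, a helicase that takes part in initiation, had 510 and 337 (-0.60, or -0.49 with median centring) in 1 kept probe set. Treslin and the product of Recql4 act beside MCM10, CDC45 and GINS, whose genes are given above.

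Among 17 polymerase subunits and fork factors, 8 were above 0 and Pold2 alone was at 1.5-fold. Of all kept genes 45.8% were above 0 and 16.6% were at 1.5-fold in either direction. Pold2, the accessory subunit of polymerase delta that binds POLD1, had signals of 5567 and 3691, 1.51-fold lower, in 1 kept probe set, and was at -0.48 with median centring. Pold1 and Pold2 were thus both lower, while Pold3 (808 and 925, 0.20) and Pold4 (206 and 270, 0.39), which were chosen after their values were seen, were higher.

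Of 8 genes of fork protection and alternative clamp loaders, 4 were above 0, against 45.8% of all kept genes. Rad17, the large subunit of the loader of the checkpoint clamp, which shares the small subunits of replication factor C, had signals of 1616 and 2929, 1.81-fold higher, in 1 kept probe set. This was the largest difference among the 63 genes by brightest probe set. The products of Rfc2, Rfc3, Rfc4 and Rfc5 serve both loaders, and of these genes Rfc3 and Rfc4 were the higher ones.

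Of 11 further genes of nucleotide supply, 6 were above 0, against 45.8% of all kept genes. Shmt2, the mitochondrial serine hydroxymethyltransferase that feeds one-carbon units, had signals of 3235 and 2050, 1.58-fold lower, and its 4 kept probe sets were all below 0 (-0.96 to -0.34); with median centring its brightest was at -0.55, short of 1.5-fold. Of the 9 genes of this group with at least 2 kept probe sets, 3 had all of them below 0, 3 had all above 0 and 3 had them on both sides; those named next were chosen after their values were seen. Mthfd1, which makes one-carbon folates, ran from -0.80 to -0.27, and Dtymk, thymidylate kinase, the step after Tk1 and Tyms, from -0.61 to -0.22. On the other side, Dck, deoxycytidine kinase of the salvage pathway, ran from 0.25 to 1.13, and Nme1, a nucleoside diphosphate kinase, from 0.01 to 0.42. Rrm2b, an alternative small subunit of ribonucleotide reductase, was at 0.06 by its brightest probe set, and its other kept probe set, with signals of 70.1 and 162, passed the filter only on the knockdown array, where it was high. Rrm2b is counted among the 9 only through that probe set. Samhd1, counted on both sides, includes a probe set (134 and 44.6) that passed only on the control array, where it was high.

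None of 7 genes of replication-coupled chromatin assembly and maintenance reached 1.5-fold. The highest was Chaf1b, a subunit of chromatin assembly factor 1, with signals of 1993 and 2500 (0.33), and the lowest was Uhrf1, which directs maintenance methylation, with 7591 and 6997 (-0.12). Of the remaining E2F and DP factors, 7 of 8 lay above 0, against 45.8% of all kept genes, with a median of 0.32, and none reached 1.5-fold with the deposited scaling. E2f4 (106 and 136) passed the filter only on the knockdown array, where it was high; without it 6 of 7 lay above 0, with a median of 0.28. With median centring all 8 lay above 0. E2f8, an atypical repressor of the family, was highest, with signals of 1301 and 1851 (0.51), and Tfdp2, a dimer partner, was lowest, with 949 and 895 (-0.08). The 4 kept probe sets of Tfdp2 ran from -1.21 to 0.24, and the lowest of these passed only on the control array, where it was high. The median of this group stood above those of the other 5 groups, which ran from -0.04 to 0.14.

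**Figure D4:**
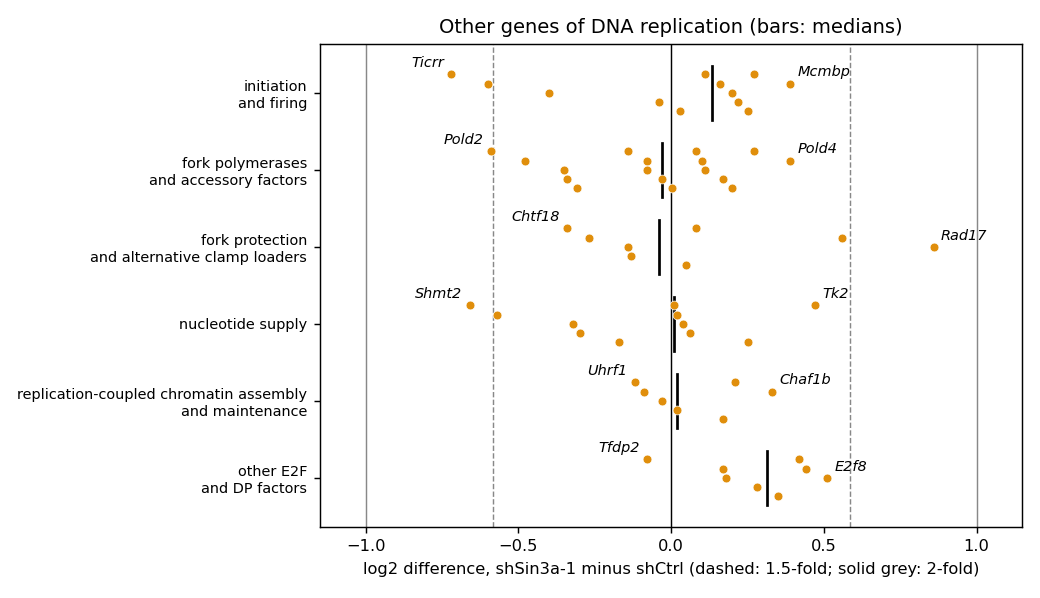
Log2 difference (shSin3a-1 minus shCtrl) of 63 further genes of DNA replication in 6 groups, with 1 point per gene by its brightest probe set; bars are group medians, and dashed and solid grey lines mark 1.5- and 2-fold. Rad17 lies furthest to the right and Ticrr furthest to the left, and 7 of the 8 E2F and DP factors lie to the right of 0 (8 of 8 with median centring), among them E2f4, which passed the filter on the knockdown array only.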

How the data were processed

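Total RNA from 1 shCtrl and 1 shSin3a-1 culture was hybridised to 1 array each, and groups were taken from the shRNA named in the labels. The deposited values are intensity signals on a linear scale for 45101 probe sets, made by the authors with Affymetrix Expression Console and its MAS5 method, as the submitters' processing notes say; versions and genome build were not given in the sources used here. Probe sets were named from the platform annotation (34958 with 1 symbol, 932 with several and 9211 with none), and symbols were updated by Entrez identifier to RefSeq of GRCm38.p6 (34754 matched). Signals were taken to log2 with the deposited scaling, because the array median, which differed by -0.11, lies near background, while the 75th percentile differed by 0.0077; earlier work on these arrays centred them on the median, given here as an alternative. On each array values below its 40th percentile (signals of 46.8 and 41.7) were set to it; none of the 39 genes was affected. With 1 array per group, called means past a fixed fold, and the number of arrays limits the precision. MAS5 subtracts mismatch signals, so ratios of dim probe sets vary widely. The genes named are all 39 members, Sin3a and the marker lists, and of the other genes those at 1.5-fold or more or else the highest and lowest of their group, with exceptions stated. The members and lists were chosen with earlier results of these data known. Scalings, filters, floors, an offset of 100, and other choices of probe set were tried as alternatives. The procedure was tested on simulated data with differences larger than any of the 39 genes showed, so the test does not cover differences of the size given here. Python 3.11.15, numpy 2.4.6, pandas 2.3.3 and statsmodels 0.14.6 were used.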

Additional observations from a re-analysis of the deposited data

How the results depend on the processing

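The count of 0 replication genes at 2-fold or more, in either direction, did not change under any of the 12 alternatives of scaling, filter, floor, offset or probe set, nor with a filter that both arrays had to pass, added after the data were seen. With a threshold of 1.5-fold 1 was higher and 0 were lower, and with a ratio of 5 to 4, 3 and 4. For the 63 other genes the counts were 1 higher and 4 lower at 1.5-fold, and 10 and 11 at 5 to 4 (33.3% together, against 39.5% of all kept genes); with the mean of all probe sets 1 was higher (E2f8, 1.77) and 2 were lower (Pole4, -1.29, and Chaf1b, -1.32) at 2-fold. That mean includes probe sets that did not pass the filter. The number of members above 0 ran from 19, with the mean of all probe sets, to 29, with median centring. With that mean Pola2 and Tyms did not pass the filter and were not counted. Their median of 0.08 moved to 0.19 with median centring and lay between 0.03 and 0.08 under the other alternatives. Of 465 single values of members under the alternatives, 10 moved by more than the SD of 0.277 between kept probe sets of a gene. Of these 10, 6 moved with the mean of all probe sets and 4 without suffixed probe sets (_a, _s or _x, a mark of shared sequence). Many of the 465 could not move that far, so 10 of 465 is no measure of stability. No filter or floor changed a member's value, and median centring added 1 constant below that SD. The SD includes the Mcm10 reading that passed the filter on the knockdown array only. In the mean, Cdc45 (-0.40), Gins1 (-0.51), Slbp (-0.31) and E2f1 (-0.46) turned below 0, Mcm10 was at 0.14 and Pola1 was at 0.66; without suffixed probe sets Orc4 was at -0.53, Mcm10 at 0.07, Gins2 at 0.70 and E2f1 at 0.62. No paired analysis was possible because each group had 1 array, and no replicate could be left out.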

Other observations

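Some replication genes share a promoter region with a neighbour transcribed the other way, and the values of such pairs are set side by side here. In the RefSeq promoter table, 4 of the 31 genes had such a neighbour with starts within 500 bases and a probe set that passed the filter; the pairs were chosen by position. Cdc45 (log2 difference 0.28) starts 322 bases from Ufd1, a cofactor of the VCP segregase, which had signals of 1272 on the control array and 1606 on the knockdown array (0.34). Orc3 (0.19) starts 15 bases from Rars2, a mitochondrial arginyl-tRNA synthetase, which had 1562 and 1684 (0.11). Orc1 (-0.03) starts 118 bases from Prpf38a, a splicing factor, which had 4311 and 4251 (-0.02). Mcm7 (-0.06) starts 138 bases from Ap4m1, an adaptor subunit, which had 420 and 383 (-0.13). Both genes lay on the same side of 0 in each of the 4 pairs with the deposited scaling, Orc1 and Prpf38a only barely. The share of same-side pairs over all kept genes was not computed, so this count has no background beside it. All 8 differences were below 1.5-fold, and of all kept genes 16.6% were at 1.5-fold or more. With median centring Mcm7 turned above 0 while Ap4m1 did not, and Orc1 and Prpf38a both turned above 0. So few pairs, on 2 arrays, are values only.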
